A study of Danio rerio with 16 samples.

Results

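The transcripts described here are the 150 with the brightest probes in zebrafish embryos at 4.7 hours post fertilization (hpf), once large families of housekeeping genes had been set aside. For each of the 9238 gene symbols on the array the probe with the highest median intensity over 16 samples was taken, 18 families known by the start of their symbol (among them ribosomal proteins, translation factors, proteasome subunits, chaperones, splicing factors, respiratory chain subunits, cyclins and keratins) and 8 single genes were left out, and the 150 genes with the highest median were kept. The level over all samples chose these genes, so the levels below are a description. Whole embryos were frozen in pools of 60 to 100, and all of them had been in 15 µg/ml cycloheximide from 1.5 hpf. MZ embryos, with the m793 allele of spg, lack maternal and zygotic Pou5f1, and were injected with 100 pg of Pou5f1 mRNA per embryo (MZ_Pou5f1, 3 samples), injected with 50 pg of Sox2 mRNA (MZ_Sox2, 4 samples) or left uninjected (MZ, 3 samples). Wild-type embryos were injected with 50 pg of Sox2 mRNA (WT_Sox2, 3 samples) or left uninjected (WT, 3 samples). Replicates are biological, per the series design text.

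A zebrafish egg carries a large store of mRNA made by the mother, which runs the first cell divisions before the embryo's own genome is switched on and is cleared while zygotic transcription takes over. Cycloheximide stops translation, so zygotic genes that need newly made regulators, and decay that needs newly made proteins, are held back. Many of the best known products of that store serve rapid cell division: histone handling, DNA replication, spindle assembly, mRNA storage and energy supply.

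The samples did not sort by their labels in these 150 genes. When each gene was expressed as its deviation from its median over the 16 samples, 5 of the 16 samples correlated best with a sample of their own group, 7 with a sample of their own slide and 13 with a sample of their own dye (7 samples were in Cy5 and 9 in Cy3). With 5 groups, 4 slides and 2 dyes, a match by chance is likeliest for dye, so these counts cannot be set directly against each other. MZ_Pou5f1 replicate 3 and WT replicate 1 correlated at 0.787 (Pearson, over 150 genes of the same 2 samples), as did WT replicates 1 and 2, and MZ_Pou5f1 replicate 1 and WT_Sox2 replicate 3 at 0.772. The lowest value was -0.473, between MZ replicate 2 and WT replicate 1. MZ_Pou5f1 replicate 3 shares its slide with WT replicate 1, whereas the other pairs named lie on different slides. This was not particular to the 150 genes. Over the brighter 10747 probes, MZ_Pou5f1 replicate 3 correlated at 0.993 with WT replicate 1 (Spearman). With MZ_Pou5f1 replicates 1 and 2 it correlated at 0.952 and 0.949. Some other samples did match their own group best there, such as WT replicates 1 and 2 at 0.997. The third WT sample did not. WT replicate 3 correlated at 0.849 with WT replicate 1 and at 0.846 with WT replicate 2. With MZ replicates 2 and 1 it correlated at 0.945 and 0.938. Group differences below are therefore differences between samples that carry those labels. Of the markers of early embryos, 7 of 8 were measured, and their summed intensity per sample ran over 2494 to 12328 in MZ_Pou5f1, 3592 to 30886 in MZ_Sox2, 6163 to 18034 in WT_Sox2, 30331 to 52974 in MZ and 5559 to 53409 in WT. Markers of differentiated tissues, 7 of 8 measured, summed to 122 to 457 over all samples. Markers of the enveloping layer, the outer cell sheet of the embryo (4 of 4 measured), summed to 150 to 621 in MZ_Pou5f1, 253 to 10060 in MZ_Sox2, 220 to 285 in WT_Sox2, 549 to 8339 in MZ and 216 to 2635 in WT. Germ plasm markers (3 of 3 measured) summed to 8018 to 20889 over all samples. The part of these markers in the group differences below was not tested. In pooled whole embryos, fewer cells of a type and less RNA per cell cannot be told apart.

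**Figure D1:**
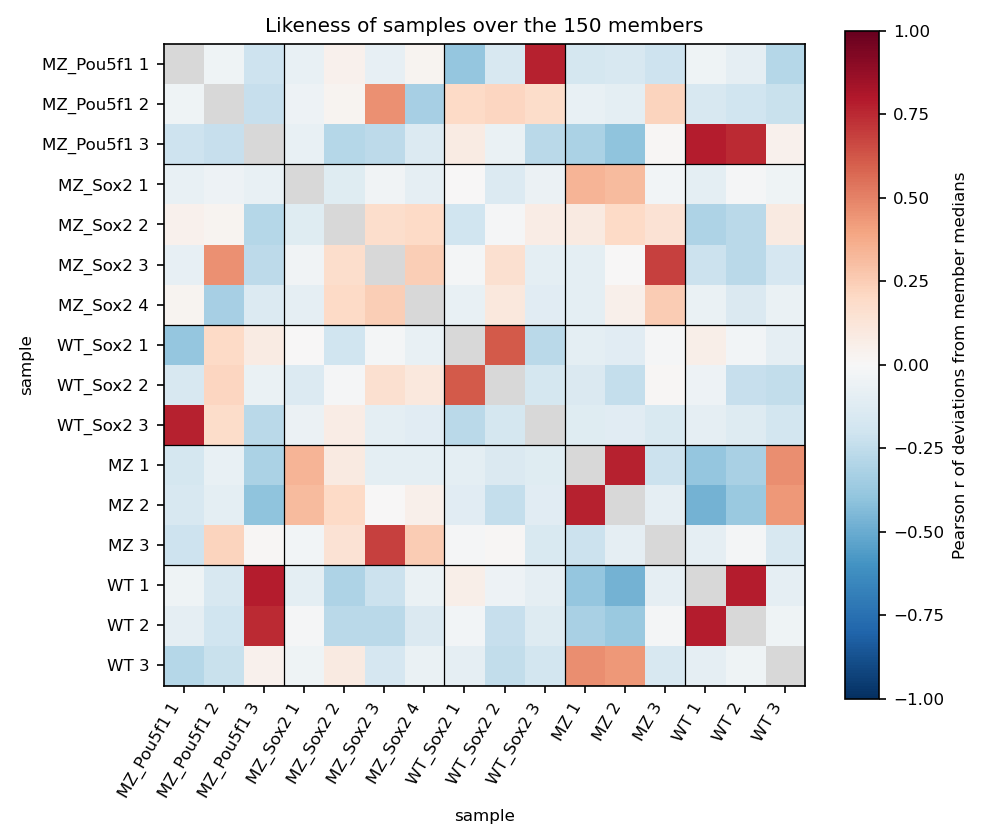
Pearson correlation between samples of the deviations of the 150 genes from their own medians over 16 samples, with samples ordered by group from MZ_Pou5f1 to WT. High values lie both inside groups, as for WT replicates 1 and 2 at 0.787, and across them, as for MZ_Pou5f1 replicate 3 and WT replicate 1 at 0.787.

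The 150 genes lay far above the floor of the array. Their median intensities, in arbitrary linear units, ran over 26184 to 96130, which is 14.68 to 16.55 on the log2 scale used below. The lowest value of any of them in any sample was 2329, and in each sample all of them stood at least 44.1-fold above the dark corner spots, the array's empty positions. Only 250 of 21495 probes (1.16%) were as bright as the dimmest of the 150, and 119 of the 150 brightest named genes of the array were among them before any family was left out. Of the 150, 146 were in the top 10% of probes in all 16 samples, 130 in the top 5% and 8 in the top 1%. At the limit, bysl (14.71), slc25a25a (14.70), katnbl1 (14.69), rcc2 (14.68) and smarce1 (14.68) were just inside, and rbm4.3, desi2 and si:dkey-42i9.4 (14.67 each), bud31 and nap1l1 (14.66 each) just outside. Probe sequence also sets brightness, so the order of different genes is an order of probes and not of transcript numbers.

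**Figure D2:**
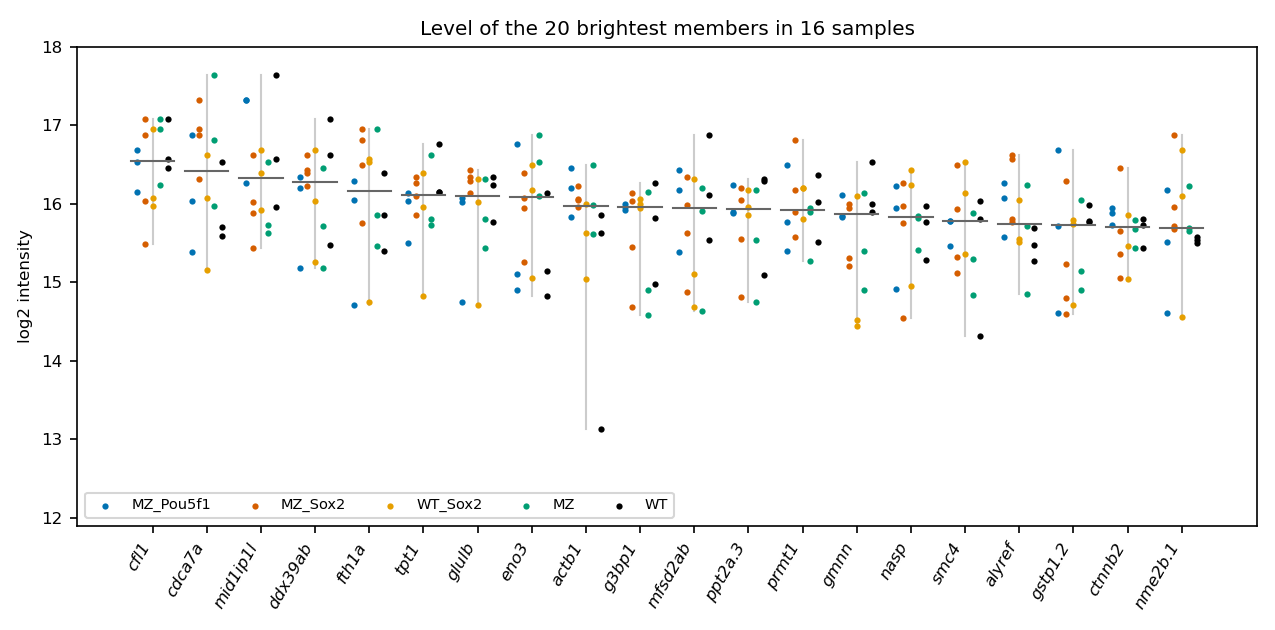
Log2 intensity of the 20 genes with the highest median, 1 point per sample with colours for the 5 groups, a bar at the median and a line over the whole range. The medians run over 15.69 to 16.55, and actb1 in WT replicate 3, at 13.13, lies far below the rest of its own points.

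By known role, 142 of the 150 genes were placed in 9 groups and 8 were not placed, 7 of which have clone names. Metabolism and redox held 28 genes. The next largest groups were mRNA binding, export and decay with 24, chromatin and DNA replication with 23, and mitosis, microtubules and nuclear lamina with 19. Actin, junctions and signalling held 15, membrane traffic and lysosome 11, nucleolus and ribosome assembly 9, protein modification and folding 8, and transcription factors 5. With lists defined by symbol alone, 7 of 73 array genes of DNA replication and nucleotide supply were among the 150 (9.59%), 16 of 172 of central metabolism (9.30%), 7 of 82 of chromatin (8.54%), 13 of 174 of RNA binding (7.47%) and 10 of 135 of microtubules and mitosis (7.41%). The share of all array genes was 1.62%. Shares were 2.15% for the secretory pathway (7 of 325) and 1.46% for mitochondrial carriers and related genes (2 of 137), and none of 28 tRNA synthetases was included.

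Genes of chromatin and DNA replication cover the passage from histones to copied DNA. The brightest was cdca7a, a cell division gene that acts on chromatin, with a median of 16.42 and values between 15.15 and 17.64. Next to it stood prmt1 (15.92), an arginine methyltransferase, gmnn (15.87), which keeps replication origins from firing again, and nasp (15.83), a histone chaperone. The licensing factor cdc6 (14.91) and the helicase subunit mcm7 (15.35) were both included, as were rrm1 (15.29), dut (15.05) and nme2b.1 (15.69), enzymes of nucleotide supply. Histone variants were represented by h2az2b (15.47) and h3f3a (15.43), whose mRNAs, unlike those of replication histones, are polyadenylated. The maintenance DNA methyltransferase dnmt1 had a median of 15.52 with a range of 3.32, and was highest in WT_Sox2 replicate 1 (17.32) and lowest in MZ replicate 1. In contrast hdac1, a histone deacetylase, stayed within 0.95 over the 16 samples (14.41 to 15.36), and rcc1, which binds chromatin and loads Ran, within 0.85 (14.35 to 15.20). A second probe of hdac1, at a median of 13.27, ranged by 2.57.

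Genes of mRNA binding, export and decay had the lowest median range of the large groups, 1.55. The export factors ddx39ab (16.28), a helicase, and alyref (15.74), its partner, were both among the 20 brightest, with thoc7 (14.91) of the same export complex further down. Several are known from oocytes and eggs: zar1l (15.62), a relative of zygote arrest 1, btg4 (14.98), which brings deadenylases to maternal mRNA, and gtsf1 (15.63), which takes part in transposon silencing. The deadenylase subunits cnot8 (15.49) and cnot6a (15.11) were present, and so was slbp (15.42), which binds the stem loop of histone mRNA. The stress granule protein g3bp1 had a median of 15.95 and a spread between 14.58 and 16.27. The widest of these was paip2b, an inhibitor of the poly(A) binding protein, with a range of 3.07 that reached 17.32 in WT_Sox2 replicate 3 and 16.63 in MZ_Pou5f1 replicate 1 while all other samples stayed at 15.96 or lower. The steadiest was hdlbpa, the RNA-binding protein vigilin, at 14.31 to 15.19.

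Mitotic genes included smc4 (15.78), a condensin subunit, tubb4b (15.63) and tuba8l4 (15.19), tubulins, tacc3 (15.37), a spindle protein, and aurkb (14.79) and incenp (14.97), which act together on chromosomes. Regulators of the egg's own divisions were also there: wee2 (15.40), a kinase that restrains Cdk1 in oocytes, and fbxo43 (15.06), which holds the egg at metaphase in vertebrates. The nuclear import carrier kpna2 ranged by 3.09, between 13.99 in MZ_Sox2 replicate 2 and 17.08 in WT_Sox2 replicate 1. By contrast rcc2, which works at the centromere, stayed between 14.35 and 15.20 on the probe taken.

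Metabolic genes held 6 of the 20 brightest. These were mid1ip1l (16.33), a relative of a regulator of fatty acid synthesis, fth1a (16.17), the ferritin heavy chain that stores iron, glulb (16.11), glutamine synthetase, eno3 (16.09), a glycolytic enolase, mfsd2ab (15.95), a lysolipid carrier, and gstp1.2 (15.73), a glutathione transferase. Further glycolytic or related enzymes were gapdh (15.65), gapdhs (15.05), ldhba (15.63) and pgk1 (14.92). The first and the last enzyme of haem synthesis, alas1 (15.35) and fech (15.22), were both included, as were cat (15.18), sod1 (14.88) and prdx2 (15.03), which remove peroxide or superoxide. Among these 28 genes the widest was gapdhs with a range of 4.67 and the steadiest mdh1aa, cytosolic malate dehydrogenase, with 0.95.

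The single brightest gene was cfl1, cofilin, which severs actin filaments: its median was 16.55, with 15.48 in the lowest and 17.08 in the highest samples. The cytoplasmic actins actb1 (15.98) and actb2 (15.53), the catenin ctnnb2 (15.71), the tight junction genes cldng (14.97), cldn7b (14.92) and oclna (15.11), and the small GTPase rac1a (15.12) were in the same group. In membrane traffic and lysosomes stood rab1bb (15.57) and arf5 (15.37), GTPases of early secretion, the lysosomal proteases ctsla (15.35) and ctsba (15.29), and ppt2a.3 (15.93), a thioesterase. The nucleolar group held ncl (15.67), npm1a (15.36), nop58 (15.40) and bysl (14.71), which take part in making ribosomes, together with tpt1 (16.12), a translationally controlled protein, and rack1 (15.00), a scaffold on the small ribosomal subunit. Only 5 sequence-specific or general transcription factors or co-factors were kept: cited4b (15.61), nfe2l3 (15.38), gtf2a1 (15.26), sox11b (15.16) and tbp (14.94). Of these sox11b, of the SoxC family, was the steadiest, between 14.78 and 15.77. The transcription factor gene pou5f3 also reached the level of the genes kept, but it had been left out by name.

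**Figure D3:**
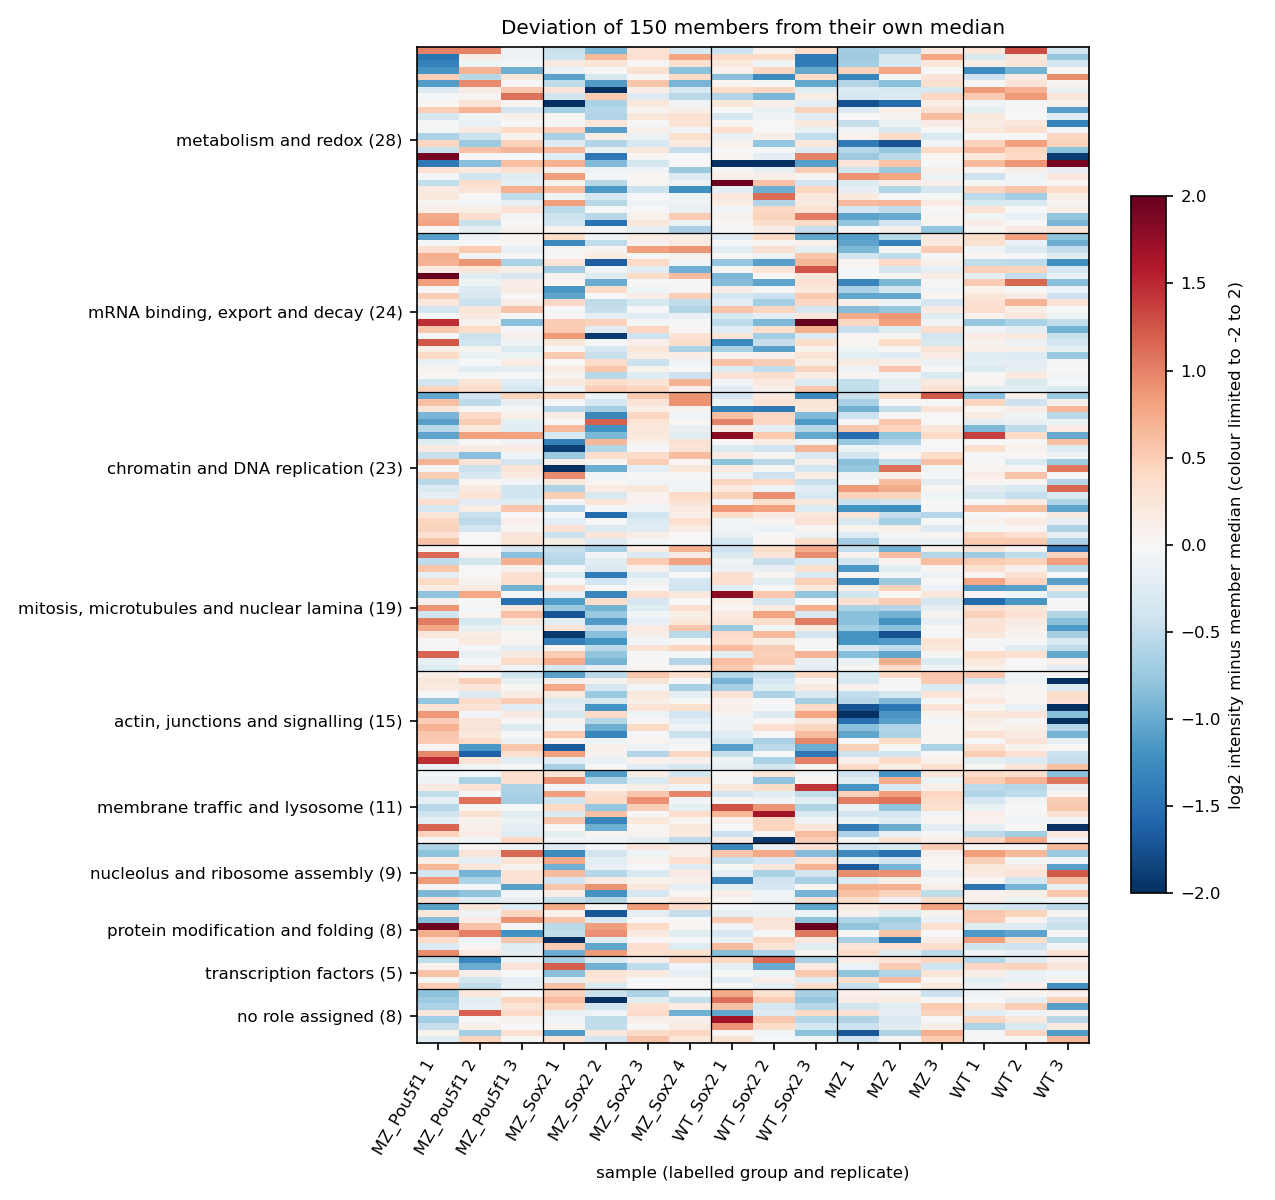
Deviation of each of the 150 genes (rows, grouped by role) from its own median over 16 samples, on the log2 scale, with samples as columns from MZ_Pou5f1 to WT. Low values gather in single columns, such as MZ_Sox2 replicates 1 and 2, MZ replicates 1 and 2 and WT replicate 3, more than in whole groups. Of these columns, MZ replicates 1 and 2 and WT replicate 3 share slide 2. WT replicate 2 is on that slide too, with a median deviation of 0.03. MZ_Sox2 replicates 1 and 2 are on slides 3 and 4.

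Bright probes were not all steady. The median within-group SD of the 150 genes was 0.51 on the log2 scale, with the 10th and 90th percentiles at 0.30 and 0.75. The 150 genes next in level had a median SD of 0.41 (0.28 to 0.59), the 41 left-out genes of like level 0.49, and all 21495 probes 0.57. The median range over the 16 samples was 1.87 for the 150, 1.60 for the next 150 and 2.17 for all probes. The brightest 50 of the 150 had a median SD of 0.55, the middle 50 of 0.48 and the last 50 of 0.44. Only 7 of the 150 stayed within a range of 1, against 10.7% of all probes, 79 had a range of 1 to 2 (33.8% of all probes), 50 of 2 to 3 (28.1%) and 14 of 3 or more (27.4%). Level and spread are tied on an array, and these figures are descriptions without a test. The labelled group accounted for a median of 29.5% of the variance of a gene (32.7% over all probes), the slide for 26.0% (28.5%) and the dye for 5.01% (3.17%). Groupings of as many levels that are unrelated to the values take a mean of 26.7% for group, 20% for slide and 6.67% for dye.

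**Figure D4:**
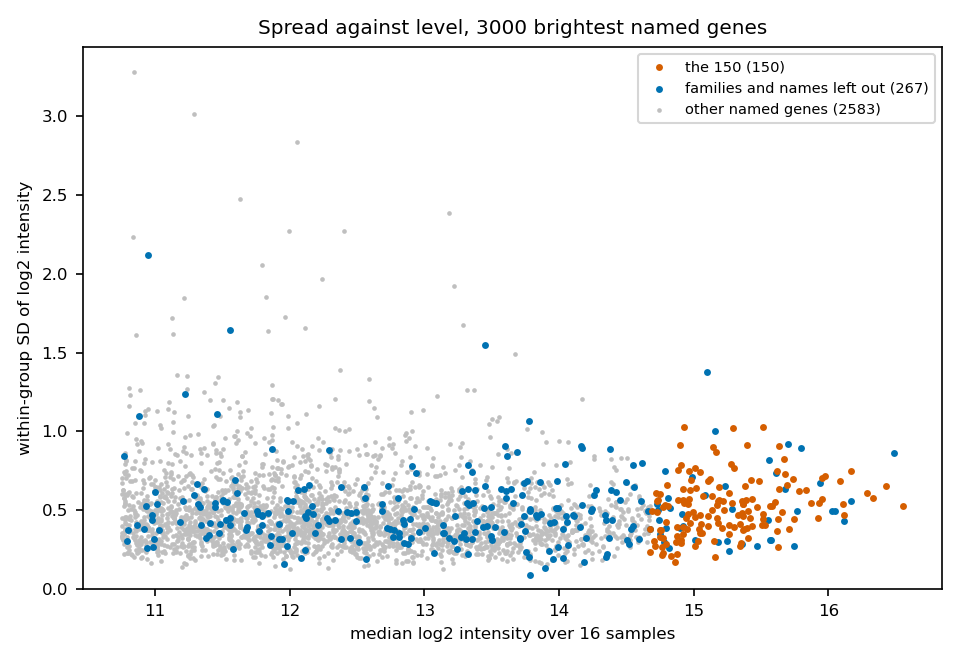
Within-group SD of log2 intensity against median log2 intensity over 16 samples for the brightest named genes, 1 point per gene, with colours for the 150, the left-out families and names, and the other genes. The 150 lie at 14.68 or above with a median SD of 0.51, and the 150 genes next in level have 0.41.

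Single samples made most of the widest ranges. The gene golga7, whose product assists a palmitoyltransferase, read 16.10, 15.04 and 14.72 in MZ_Pou5f1, 14.93, 13.94, 14.97 and 15.13 in MZ_Sox2, 14.93, 15.36 and 15.15 in WT_Sox2, 13.51, 13.93 and 14.71 in MZ, and 14.75, 14.92 and 11.19 in WT. WT replicate 3 was thus the lowest, and the groups overlapped. For rrm1, the large subunit of ribonucleotide reductase, values were 15.26, 14.87 and 15.57 in MZ_Pou5f1, 11.73, 14.29, 15.10 and 15.52 in MZ_Sox2, 15.47, 15.32 and 14.94 in WT_Sox2, 14.52, 16.40 and 15.20 in MZ, and 15.35, 15.35 and 16.34 in WT. Here MZ_Sox2 replicate 1 was the lowest. The same sample held the lowest value of ide, an insulin-degrading protease, at 11.85 against 13.45 or more elsewhere, and of ldhba, lactate dehydrogenase B, at 12.54 against 13.89 or more. WT replicate 3 held the lowest value of actb1 at 13.13, while the other 15 values were 15.05 or higher. It was also lowest for nfs1, a cysteine desulfurase, at 13.25, while MZ_Pou5f1 replicate 1 held its highest value of 17.08. MZ_Sox2 replicate 2 was lowest for lipg, a lipase, at 13.26.

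The narrowest ranges were 0.85 for rcc1 and rcc2, 0.88 for hdlbpa, 0.90 for bysl, 0.95 for mdh1aa and hdac1, 0.99 for sox11b, 1.03 for slc25a25a, a mitochondrial carrier, and 1.04 for ddx3xb, an RNA helicase, with erh, a small nuclear protein, between sox11b and slc25a25a. For rcc1 the values were 15.07, 14.76 and 15.00 in MZ_Pou5f1, 14.35, 15.01, 14.90 and 14.75 in MZ_Sox2, 14.64, 14.78 and 14.65 in WT_Sox2, 14.51, 14.73 and 14.82 in MZ, and 15.20, 15.10 and 14.60 in WT. All 5 groups overlapped in it. Familiar reference genes were not at this end: actb1 ranged by 3.37, gapdh by 2.02, tubb4b by 1.97 and actb2 by 1.37.

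**Figure D5:**
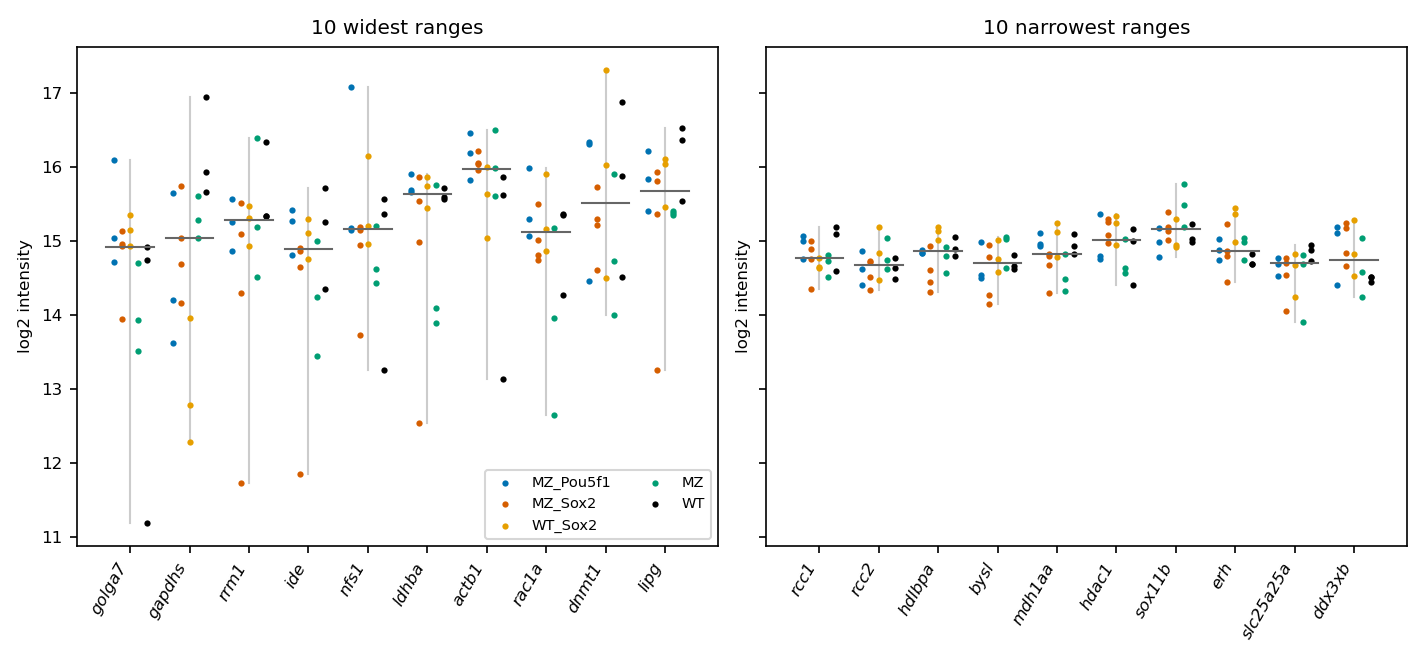
Log2 intensity in each of the 16 samples for the 10 genes with the widest and the 10 with the narrowest range, clone names passed over, coloured by group. The wide ranges, up to 4.91 for golga7, come mostly from 1 or a few low points, and the narrow ones start at 0.85.

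The low and high values were spread unevenly over the samples. MZ_Sox2 replicate 2 was the lowest sample for 27 of the 150 genes, MZ_Sox2 replicate 1 for 21, MZ replicate 1 for 20 and WT replicate 3 for 17. MZ_Pou5f1 replicate 1 was the highest for 25 genes, WT_Sox2 replicate 1 for 18 and WT_Sox2 replicate 3 for 17. The median deviation of the 150 genes was -0.36 in MZ replicate 1, -0.30 in MZ_Sox2 replicate 2, -0.17 in MZ replicate 2 and -0.14 in WT replicate 3. In the other 12 samples it lay between -0.01 and 0.07. The dark corner spots read 132.7 in MZ replicate 1, 52.8 in WT replicate 3 and 12.6 in MZ replicate 2, against 6.85 to 9.87 in the other 13 samples, MZ_Sox2 replicate 2 included. The part of this background in the low values was not tested.

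Of the 150 genes, 80 have more than 1 probe, which lets the same transcript be read again. The second probe was within 1 of the brightest for 43 of them, more than 3 lower for 25, and itself above the limit of the 150 for 24. Over the 16 samples the 2 probes of a gene correlated at a median of 0.378 (Pearson), at 0.8 or more for 11 genes and under 0.3 for 34. For rack1 (0.97), gapdh (0.96), gstp1.2 (0.95), jpt2 (0.89), gtsf1 (0.87), mcm7 (0.87) and oclna (0.86) the pattern over samples was shared by both probes. For some of the widest genes it was not. The second probe of rrm1 ranged by 1.36 instead of 4.66 and correlated at -0.16, that of ldhba ranged by 2.00 and correlated at -0.62, and that of actb1 correlated at 0.01. Among the narrowest genes, the second probe ranged by 2.57 for hdac1, by 2.61 for rcc2 (at a median of 7.76) and by 0.95 for slc25a25a. The widest second probe was that of ctsba, with a range of 13.12 at a median of 8.85, against 1.75 on the brightest probe. Within MZ_Sox2 alone it read 2.74 in replicate 1 and 15.85 in replicate 4. The sample with the lowest value was the same on both probes for 16 of the 80 genes. Probes of a gene share the sample and its hybridisation, and a second probe may read another isoform or a related gene.

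Across the 5 groups at once, none of the 150 genes passed the threshold of an adjusted p of 0.05 (limma moderated F test over all 21495 probes). The background was 0% of all probes. Without adjustment 6 of the 150 had p under 0.05, against 10.1% of all probes. The smallest adjusted p was 0.302, for ctsla. Dye was not called for any of the 150 either (0% of all probes), with 14 below 0.05 unadjusted against 3.02% of all probes. Examples are nfe2l3 (0.88, Cy5 minus Cy3) and ldhba (-1.12), and the smallest limma adjusted p was 0.9998. In the 5 comparisons that follow, log2 differences come from that limma fit with dye as a covariate, ± marks the SD over samples, and the comparisons share samples: the MZ samples enter 3 of them, and the WT, WT_Sox2 and MZ_Sox2 samples 2 each.

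MZ against WT asks what lacking Pou5f1 changes under cycloheximide. None of the 150 genes was called, against 0.00465% of all probes (1 probe), and 10 had an unadjusted p under 0.05 (7 higher and 3 lower in MZ) against 12.2% of all probes. The median difference of the 150 was -0.15 (all probes -0.04), with 56 higher and 94 lower, and it was -0.054 without WT replicate 1 and -0.27 without MZ replicate 3. In 13 genes all MZ samples lay above all WT samples (8.67%, background 5.23%), and in 9 below (6%, background 7.96%). By role, negative differences were seen in 19 of 28 metabolic, 13 of 19 mitotic, 7 of 9 nucleolar and 10 of 15 actin, junction and signalling genes. None of these was a call, and they stand beside the 94 of all 150 that were lower. Only the transcription factors had more positive than negative differences (3 and 2). Of all probes, 47.4% had positive differences.

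The lysosomal protease ctsla read 15.82, 16.18 and 15.77 in MZ and 14.74, 14.84 and 15.39 in WT. All MZ samples were above all WT samples, with a difference of 0.98 (SE 0.26, limma adjusted p = 0.297). On its second probe, which is dim with a median of 8.62, the difference was -1.20 (SE 0.70). The scaffold rack1 read 15.71, 15.71 and 15.14 in MZ and 13.53, 14.07 and 14.85 in WT, again without overlap, with a difference of 1.38 (SE 0.41, limma adjusted p = 0.31). Its second probe gave 1.53 (SE 0.39, limma adjusted p = 0.297). In the other direction fech, the last enzyme of haem synthesis, read 13.81, 13.47 and 15.15 in MZ and 15.68, 16.03 and 15.66 in WT, all MZ values being lower, a difference of -1.65 (SE 0.46, limma adjusted p = 0.31). For lsm14b, which binds stored mRNA, the values were 15.33, 15.09 and 14.85 in MZ and 15.50, 15.89 and 15.49 in WT, also without overlap, a difference of -0.70 (SE 0.26, limma adjusted p = 0.357). On slide 1 (1 sample of each group) the median difference of the 150 was -0.04, and on slide 2 (2 of each) -0.17. On these slides ctsla differed by 1.03 and 0.89, rack1 by 1.61 and 1.25, fech by -0.54 and -2.21, and lsm14b by -0.64 and -0.48.

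MZ_Pou5f1 against MZ asks what returning Pou5f1 changes. None of the 150 was called (background 0%), with 16 below 0.05 unadjusted (10 higher and 6 lower in MZ_Pou5f1) against 12.2% of all probes. Of the 150 differences, 100 were positive, with a median of 0.17 (all probes 0.06). In 13 genes all MZ_Pou5f1 samples lay above all MZ samples (8.67%, background 10.4%), and in 8 below (5.33%, background 6.51%). Without MZ replicate 1 the median difference was 0.11, and on the deposited values as they stand 0.28. Without MZ replicate 3 it was 0.32 and 2 genes were called, rac1a (2.28, limma adjusted p = 0.0458) and fech (1.76, limma adjusted p = 0.0484), among 491 probes in all. The MZ samples then left, replicates 1 and 2, were both on slide 2 and in Cy5, while all MZ_Pou5f1 samples were on slide 1. In that fit the effects of slide and of Pou5f1 mRNA cannot be told apart.

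The GTPase rac1a read 15.99, 15.07 and 15.30 in MZ_Pou5f1 and 12.65, 13.96 and 15.19 in MZ. MZ replicates 1 and 2 were low and replicate 3 lay among the injected samples, so the groups overlapped, with a difference of 1.52 (SE 0.56, limma adjusted p = 0.409). Without MZ replicate 1 it was 0.84, and on slide 1, which holds all 3 MZ_Pou5f1 samples and MZ replicate 3, 0.27. Its second probe gave 0.41 (SE 0.47). The nucleolar chaperone npm1a read 16.02, 15.59 and 15.43 in MZ_Pou5f1 and 13.68, 14.44 and 15.37 in MZ, without overlap, a difference of 1.19 (SE 0.46, limma adjusted p = 0.409). It was 0.78 without MZ replicate 1, 0.31 on slide 1, and 0.38 (SE 0.26) on its second probe. In the other direction ctsla read 14.85, 15.30 and 14.69 in MZ_Pou5f1, all below the MZ samples given above, a difference of -0.98 (SE 0.26, limma adjusted p = 0.409), and -0.82 on slide 1, while its dim second probe gave 1.54 (SE 0.70). For coq10b, which serves coenzyme Q function, values were 14.90, 14.56 and 14.71 in MZ_Pou5f1 and 15.85, 15.74 and 14.84 in MZ, which overlap, a difference of -0.76 (SE 0.30, limma adjusted p = 0.409), with the same -0.76 on the second probe and -0.12 on slide 1. The median difference of the 150 on slide 1 was -0.01.

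MZ_Sox2 against MZ asks what Sox2 mRNA changes without Pou5f1, and 2 of the 150 genes had an unadjusted p under 0.05 (1 higher and 1 lower in MZ_Sox2), against 4.82% of all probes. None was called (background 0%). The median difference was 0.05 (all probes 0.04), with 84 higher and 66 lower, and it was -0.036 without MZ replicate 1, 0.19 without MZ replicate 3 and 0.18 on the deposited values as they stand. In 2 genes all MZ_Sox2 samples lay above all MZ samples (1.33%, background 2.11%), and in 3 below (2%, background 2.09%). The core snoRNP gene nop58 read 16.15, 15.20, 15.50 and 15.73 in MZ_Sox2 and 15.15, 15.04 and 15.42 in MZ, which overlap, a difference of 0.60 (SE 0.24, limma adjusted p = 0.77), and 0.98 without MZ replicate 3. For rasgef1ba, an exchange factor of small GTPases, values were 14.11, 14.78, 14.53 and 14.44 in MZ_Sox2 and 15.16, 14.88 and 15.10 in MZ, a difference of -0.64 (SE 0.22, limma adjusted p = 0.77) with no overlap. The difference of rrm1 was -1.51 (SE 0.72), and -0.43 without MZ_Sox2 replicate 1. That of rac1a was 1.07 (SE 0.55), with 0.48 without MZ replicate 1 and 2.02 without MZ replicate 3. These groups were never on one slide, so the effects of slide and of injection cannot be told apart.

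WT_Sox2 against WT asks what Sox2 mRNA changes where Pou5f1 is present. None of the 150 was called, against 0.0977% of all probes (21 probes), and 12 had an unadjusted p under 0.05 (4 higher and 8 lower in WT_Sox2) against 14.5% of all probes. The median difference was 0.09 (all probes -0.06), with 90 higher and 60 lower, and it was -0.05 without WT replicate 3 and 0.22 without WT replicate 1. In 10 genes all WT_Sox2 samples lay above all WT samples (6.67%, background 12.0%), and in 10 below (6.67%, background 15.3%). Differences were positive in 17 of the 19 mitotic genes, with a median of 0.26. This stands beside 90 of all 150 genes and 45.2% of all probes. Of the 19, 2 had an unadjusted p under 0.05 (limma). The other role groups were less one-sided.

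Among the 150 genes, the only difference above 2 in size in any of the 5 comparisons was that of gapdhs, a glyceraldehyde-3-phosphate dehydrogenase named for its sperm form in mammals. It read 12.78, 12.28 and 13.96 in WT_Sox2 and 15.67, 15.93 and 16.95 in WT, so all WT_Sox2 samples were lower. Means were 13.0 ± 0.86 in WT_Sox2 and 16.2 ± 0.68 in WT (SD, n = 3 each), a difference of -3.18 (SE 0.55, 95% confidence interval -4.37 to -1.99), and the limma adjusted p was 0.0566, just above the threshold of 0.05. It was below the threshold without MZ_Pou5f1 replicate 1 (0.0367), without MZ_Pou5f1 replicate 3 (0.0245) and without WT_Sox2 replicate 3 (0.0285, with a difference of -3.55), all by limma. In these fits 44, 190 and 121 of all probes were called, against 21 in the main fit. The second probe of gapdhs, at a median of 6.96, gave -0.29 (SE 0.66, limma adjusted p = 0.87). The separate gene gapdh read 15.06, 14.74 and 15.80 in WT_Sox2 and 16.18, 16.50 and 15.89 in WT, also without overlap. On the second probe of gapdh the groups overlapped, with 15.77 in WT_Sox2 replicate 3 above 15.51 in WT replicate 3. In the remaining groups gapdhs read 13.62, 14.21 and 15.65 in MZ_Pou5f1, 15.74, 14.16, 14.70 and 15.04 in MZ_Sox2, and 15.28, 15.62 and 15.05 in MZ.

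Other genes in that comparison differed less. For tktb, a transketolase of the pentose phosphate pathway, values were 15.09, 15.99 and 15.09 in WT_Sox2 and 14.35, 14.18 and 15.00 in WT, without overlap, a difference of 0.88 (SE 0.30, limma adjusted p = 0.22). Its second probe gave 1.24 (SE 0.34). The GTPase arf5 read 15.57, 15.73 and 16.82 in WT_Sox2 and 14.84, 14.79 and 15.21 in WT, without overlap, a difference of 1.09 (SE 0.39, limma adjusted p = 0.235), and 0.57 without WT_Sox2 replicate 3. The second probe of arf5 gave 0.83 (SE 0.33). For rab1bb, of transport to the Golgi, values were 15.52, 14.77 and 15.61 in WT_Sox2 and 16.08, 16.27 and 16.63 in WT, all higher in WT, a difference of -1.02 (SE 0.39, limma adjusted p = 0.252), against -0.31 (SE 0.31) on the second probe. WT_Sox2 and WT samples were never on one slide, so slide effects and the effect of Sox2 mRNA cannot be told apart here.

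MZ_Sox2 against WT_Sox2 asks how embryos given the same Sox2 mRNA differ by genotype. None of the 150 was called, against 0.0186% of all probes (4 probes), and 10 had an unadjusted p under 0.05 (4 higher and 6 lower in MZ_Sox2) against 7.57% of all probes. The median difference was -0.09 (all probes -0.00), with 61 higher and 89 lower, and -0.09 on slide 3, which holds 1 MZ_Sox2 sample and all 3 WT_Sox2 samples. It turned to 0.093 on the deposited values as they stand, and ran over -0.15 to -0.036 with 1 replicate left out, without WT_Sox2 replicates 2 and 3 at the ends. In 4 genes all MZ_Sox2 samples lay above all WT_Sox2 samples (2.67%, background 4.89%), and in 7 below (4.67%, background 5.37%). Differences were negative in 17 of the 19 mitotic genes, with a median of -0.39. This stands beside 89 of all 150 genes, while 49.6% of all probes had positive differences. Of the 19, 2 had an unadjusted p under 0.05 (limma). The other role groups were less one-sided. The count of negative mitotic genes and that of positive ones in WT_Sox2 against WT share the same WT_Sox2 samples, all on slide 3. They are therefore not separate observations. The difference between the effects of Sox2 mRNA in MZ and in WT embryos was not called for any of the 150 (smallest limma adjusted p = 0.347). For this difference the share of all probes called is not given here, so the count has no background beside it.

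Both genes with the largest moderated statistic upward were named above. The protease ctsla read 16.18, 15.67, 15.89 and 16.31 in MZ_Sox2 and 14.96, 15.14 and 14.83 in WT_Sox2, without overlap, a difference of 1.03 (SE 0.24, limma adjusted p = 0.264), and of 1.2 on slide 3. Its dim second probe gave 0.10 (SE 0.65). The difference of gapdhs was 1.95 (SE 0.52, limma adjusted p = 0.353), and 2.74 on slide 3. Downward, caprin2, an RNA-binding protein, read 14.81, 15.41, 15.28 and 14.55 in MZ_Sox2 and 15.53, 15.77 and 16.76 in WT_Sox2, without overlap, a difference of -0.99 (SE 0.32, limma adjusted p = 0.475), with -0.64 without WT_Sox2 replicate 3 and -1.22 on slide 3. For hdlbpa values were 14.94, 14.31, 14.61 and 14.45 in MZ_Sox2 and 15.14, 15.19 and 15.02 in WT_Sox2, again without overlap, a difference of -0.53 (SE 0.19, limma adjusted p = 0.508), with -0.18 on slide 3. With slide as a fixed block the differences were -2.74 for ldhba and -3.28 for ide. In that fit the contrast rests on slide 3, where MZ_Sox2 replicate 1, the lowest sample for both genes, is the single MZ_Sox2 sample.

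The intervals give the precision of a single gene, without adjustment for the number of probes. A difference well beyond them could also miss the threshold, as that of gapdhs in WT_Sox2 against WT did at -3.18. The median 95% confidence interval of a difference reached 0.80 to 0.86 to either side over the 5 comparisons. Differences above 1 in size were seen in 11 genes for MZ against WT, 16 for MZ_Pou5f1 against MZ, 2 for MZ_Sox2 against MZ, 7 for WT_Sox2 against WT and 6 for MZ_Sox2 against WT_Sox2. The absence of a call therefore does not show that a gene was equal between groups.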

How the data were processed

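Total RNA of whole embryos was hybridised to Agilent arrays of 2 colours, each dye carrying its own sample. The deposited values are probe intensity on a linear scale, read with Agilent Feature Extraction per the submitters' processing notes (neither its version nor a background correction is given in the sources used here). The authors quantile normalised the split channels, per the series design text. In 14 of 16 columns the sorted values were identical; the other 2 (MZ_Sox2 replicate 4 and MZ_Pou5f1 replicate 2) were mapped by rank onto them, and log2 was taken. Of 21555 features, 60 controls were left out, leaving 21495 probes, 12887 with a gene symbol in the platform annotation and 8608 without. The gene identifiers of all 150 genes were found in RefSeq, where 0 symbols differed.

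One limma model of the 16 samples had group means, a dye term and a random effect of array (13 arrays, 3 with 2 samples, correlation 0.04286). It left 10 residual degrees of freedom, with 2.31 from the prior. Two-sided moderated tests were adjusted over all probes (Benjamini-Hochberg, threshold 0.05). The model without its array effect was tested on simulated data, with independent noise and shifts in MZ only. Slides (4 in all) were examined as batches. Arrays have no read depth: their number sets the precision.

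The 150 genes, the lists and the comparisons were chosen with earlier results of these data known, and the roles were assigned once the genes were known. Genes were named by rule: the 20 brightest, 5 on each side of the limit, the 10 widest and 10 narrowest, the 2 largest moderated statistics per direction and comparison, any called gene, and up to 5 per function list by level. Genes outside it that are named by role were chosen after their values were seen. Same-numbered samples correlated over 0.1 in 8 of 30 pairs and not in all, so the numbers were not taken as pairs. Alternatives changed the scaling, the dye term, the block, the probe taken per gene, the moderation, the threshold, or left out 1 replicate at a time. Sequences were not used here. Versions were R 4.3.3, limma 3.58.1, version 1.17.8 of the data.table package, statmod 1.5.0, Python 3.11.15 and matplotlib 3.10.9.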

Additional observations from a re-analysis of the deposited data

Results flagged for a closer look

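In 5 of 78 named genes, 1 of the 4 MZ_Sox2 samples stood far from the other 3, by the ratio of its gap from the nearest sample to the whole range of the group. Chance alone marks about 1 in 20 groups in this way. For golga7 the ratio was 0.832, with MZ_Sox2 replicate 2 at 13.94 and the others at 14.93 to 15.13. For nfs1 it was 0.834, with the same sample at 13.73 and the others at 14.95 to 15.20. For ide it was 0.915, with MZ_Sox2 replicate 1 at 11.85 and the others at 14.65 to 14.91. For hmgb2b, a chromatin protein, it was 0.907, with MZ_Sox2 replicate 1 above the others, which were at 14.97 to 15.07. For mcm7 it was 0.835, with MZ_Sox2 replicate 3 at 15.85 and the others at 15.37 to 15.45.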

How the results depend on the processing

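Of 320 alternatives of the main results, 306 kept a count of calls within 1.5 times or a value within 1 SD of the replicates. Every main count of calls was 0, and an alternative with 0 calls counted as kept. The allowance for a median was wide. With 1 replicate left out, that of MZ_Sox2 against MZ ran over -0.036 to 0.19 and still counted as kept. Of 512 alternatives of the named genes, 507 kept their direction and side of the threshold, though their sizes moved, and no named gene reversed. Leaving out 1 replicate gave 0 to 2 called genes for MZ_Pou5f1 against MZ, with a median of 0.11 to 0.32, and 0 to 1 for WT_Sox2 against WT, with a median of -0.052 to 0.22. In WT_Sox2 against WT, gapdhs was called with trend and robust options (1 gene, limma adjusted p = 0.0447), among 28 probes in all. At an adjusted p of 0.10, 1 gene passed. Over its alternatives the adjusted p of gapdhs ran over 0.0245 to 0.242. Without MZ replicate 3, rac1a differed by 2.28 in MZ_Pou5f1 against MZ (limma adjusted p = 0.0458). In that fit the MZ_Pou5f1 and MZ samples shared no slide. For MZ_Sox2 against WT_Sox2 the median was 0.093 on the deposited values as they stand. With slide as a fixed block that contrast rested on 1 MZ_Sox2 sample. Over the samples of 1 slide, whatever their group, the median SD was 0.36 on slide 1, 0.42 on slide 2 and 0.37 on slide 4. The value for slide 3, which holds the WT_Sox2 samples and MZ_Sox2 replicate 1, is not given here. Fewer samples enter these SDs, and groups are pooled where a slide holds several. Of the 150 genes, 146 remained on the deposited values, 143 with the mean in place of the median, 132 with a gene's median probe and 146 to 149 with a replicate left out; 146 remained over the 14 samples with a common distribution, an alternative chosen after seeing the data. Same-numbered samples of different groups correlated at -0.68 to 0.51, with 8 of 30 pairs over 0.1, so the numbers were not taken as pairs. Whether some same-numbered samples share more than a number was not tested. With replicate number as a block 0 genes were called in each comparison, and the limma adjusted p of gapdhs was 0.0678. Slide as a fixed block could not be fitted for MZ_Sox2 against MZ, WT_Sox2 against WT or the F test. Slide as a random block was fitted for all of them (correlation 0.148). Sequence features were not run. The causes were not tested.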
